A study of Homo sapiens with 8 samples.

Results

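AGER, CAV1, CAV2, GATA6, FOXA1 and FOXA2, 6 genes tied to alveolar type 1 cells or to the identity of lung epithelium, were followed through stretched A549 cells sorted by β-galactosidase activity. They were chosen by name, all 6 were found in the table of 13841 rows on 1 row each, and all 6 passed the low-count filter that left 11351 rows for testing. A549 cells are an established line, derived from a human adenocarcinoma of the lung, that often stands in for alveolar epithelium. All cells had been stretched (15% elongation, 15 cycles per min, 24 h) and kept for another 6 days. The groups were the β-galactosidase-positive cells, labelled senescent (4 libraries, numbers 1, 3, 4 and 5), and the negative cells, labelled non-senescent (4 libraries, numbers 2, 6, 7 and 8). Unstretched cells were not analysed here, so the stretch is shared by both groups. The labels do not tie libraries to separate cultures, and the p-values below reflect the variation among these samples alone, part or all of which may be technical.

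Alveolar type 1 cells are the thin cells that cover most of the gas exchange surface, and type 2 cells secrete surfactant and can give rise to type 1 cells. AGER encodes RAGE, a cell surface receptor that is abundant on type 1 cells and binds HMGB1 and S100 proteins. Caveolins form caveolae, flask-shaped invaginations of the plasma membrane that flatten under tension and are plentiful in type 1 cells. GATA6, FOXA1 and FOXA2 are transcription factors of the foregut endoderm that act in lung epithelium together with NKX2-1.

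Library totals ran from 5634961 to 7990839 counts. Values are given as CPM, a count scaled to library size, after TMM scaling, a scaling that assumes that most genes are equal between libraries. The libraries came from a kit that amplifies 1 short stretch of each gene, so the level of one gene cannot be set against that of another, and each gene is compared only between groups. Positive 1 and negative 2 had the lowest and the highest total, and one or the other was the most extreme library for AGER, CAV1, CAV2, GATA6, FOXA1 and FOXA2 alike on at least 1 side of the range. The values of the 6 genes are therefore also given without these libraries, as are those of related genes that one of them carries.

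AGER was higher in the positive cells, with no overlap between groups, while GATA6 was higher and CAV2 lower on average with overlapping groups, and CAV1, FOXA1 and FOXA2 had 95% intervals that spanned 0. In edgeR's quasi-likelihood test with Benjamini-Hochberg adjustment over all rows, 0 of the 6 genes passed an adjusted p of 0.05, as did 0% of all tested rows. At an unadjusted p under 0.05 stood 3 of the 6 genes, AGER and GATA6 higher and CAV2 lower, against 14.4% of all tested rows (7.52% higher and 6.85% lower). DESeq2's Wald test called 1 of the 6, AGER, and 0.477% of all rows, and limma voom with library weights called 0 of the 6 and 0% of all rows, with 1836 rows at an unadjusted p under 0.05. The genes were chosen with earlier results of these data known, so their count is not set against chance. In such bulk samples, fewer cells holding a transcript and less of it per cell cannot be told apart.

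**Figure D1:**
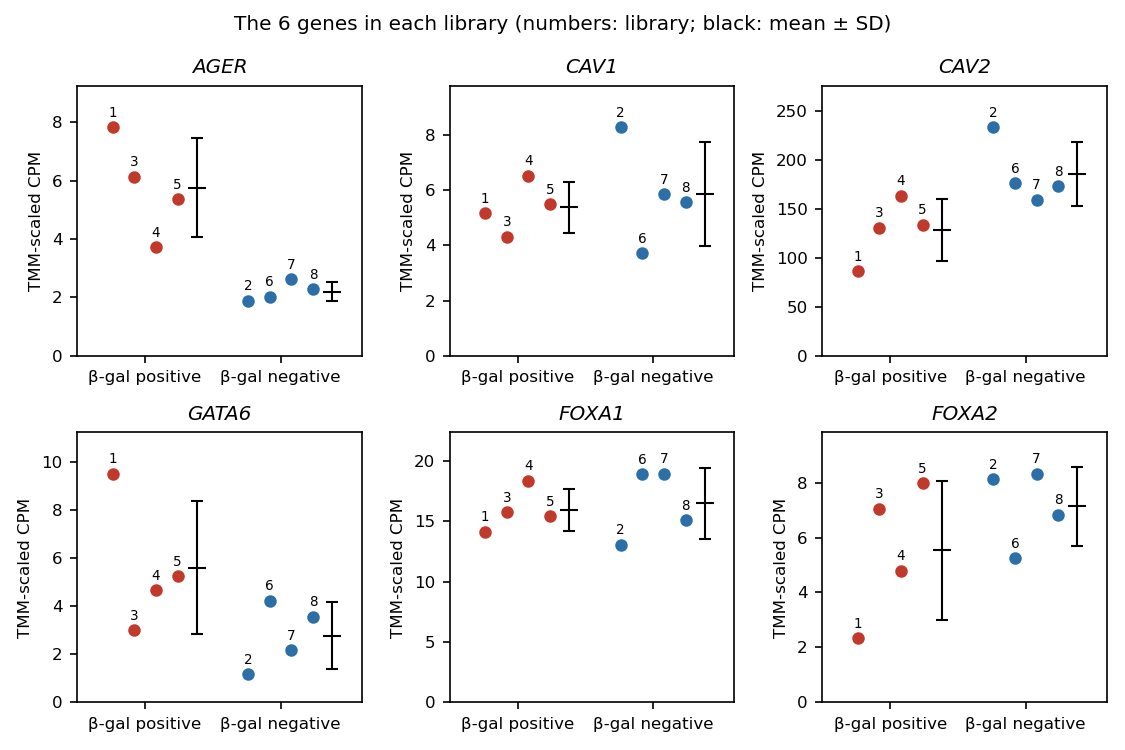
TMM-scaled CPM (vertical axis, from 0, its range differing by panel) of the 6 genes in each library, red for positive and blue for negative cells, with the library number above each point and the mean ± SD in black. AGER is at 3.73 CPM or more in every positive library and at 2.62 CPM or less in every negative one, whereas the groups overlap in the other panels.

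AGER lies on chromosome 6 at 32180968 to 32184324 on the minus strand of GRCh38 (GENCODE annotation, 15 transcripts, protein-coding, ENSG00000204305.13). It stood at 7.83, 6.13, 3.73 and 5.37 CPM in positive 1, 3, 4 and 5, and at 1.89, 2.03, 2.62 and 2.28 CPM in negative 2, 6, 7 and 8. Every positive library was above every negative one, which was the case for 1 of the 6 genes and, in either direction, for 9.14% of all tested rows. The mean was 5.76 ± 1.70 CPM in positive and 2.20 ± 0.32 CPM in negative cells (SD, n = 4 each). On the log2 scale the fold change was 1.37 ± 0.31 (SE, 95% interval 0.70 to 2.05).

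The edgeR adjusted p of AGER was 0.309, from an unadjusted p of 0.000787 that ranked 13th among the tested rows. DESeq2's adjusted p was 0.0475 and that of limma voom 0.134. The DESeq2 call rested on nearly every library. It remained without positive 4 (adjusted p 0.0319) and was lost when any other single library was left out, at adjusted p from 0.0567 (without negative 8) to 0.220 (without positive 1). The size of the difference moved less, with edgeR log2 fold changes between 1.20 (without positive 1) and 1.55 (without positive 4). With positive 1 and negative 2 both left out it was 1.15.

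These values rest on few reads. AGER had 47, 47, 28 and 41 counts in the positive libraries and 13, 12, 17 and 16 in the negative ones, or 163 and 58 in all. The exact Poisson 95% intervals of the closest pair of libraries overlapped, 18.6 to 40.5 counts for positive 4 and 9.90 to 27.2 for negative 7. Such intervals cover counting error only, since amplicon reads carry no molecular identifiers.

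AGER sits in the class III region of the major histocompatibility complex, where gene models are repeated on alternative haplotype sequences, and several of its neighbours stood on more than 1 row of the table. PBX2, which encodes a homeodomain protein and starts its annotated span 416 bases beyond that of AGER, stood on 3 rows. In negative 7, PBX2_row1 was at 20.8 CPM and PBX2_row3 at 0 CPM, whereas in the other libraries both rows held the same value, from 9.98 to 15.5 CPM. PPT2_row1, of a palmitoyl-protein thioesterase gene, was likewise at 0 CPM in negative 7 and negative 8, and elsewhere ran from 10.3 to 22.7 CPM. Genes of this region are therefore reported as uncertain, AGER included. The single AGER row had no library at 0, and whether part of its reads went to another copy was not tested.

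RNF5, an endoplasmic reticulum ubiquitin ligase whose annotated end lies 174 bases from that of AGER on the opposite strand, was lower in the positive cells. It was at 42.8, 57.5, 41.6 and 76.7 CPM in positive 1, 3, 4 and 5 and at 137, 78.1, 100.5 and 72.9 CPM in negative 2, 6, 7 and 8. The log2 fold change was -0.83 ± 0.25 (SE, edgeR adjusted p 0.309), opposite in sign to that of AGER, with overlap between positive 5 and negative 8. Positive 1 and negative 2 left out, RNF5 was at -0.49 (unadjusted p 0.0302). PBX2_row1 was at -0.29 (-0.08 without negative 7) and AGPAT1_row1, of an enzyme of phospholipid synthesis, at -0.31, neither at an unadjusted p under 0.05.

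The stretch of DNA before AGER is shown because AGER is the gene whose groups did not overlap, and that before FOXA1 because it holds the match to a forkhead motif. Promoter windows from RefSeq (GRCh38.p14, 250 bases before each annotated start) were matched for 5 of the 6 genes, in 8 windows, and searched on both strands for 4 GATA cores (AGATAA, then the form that opens with T, TGATAA, and the same pair ending in G, that is AGATAG and also TGATAG) and 3 forkhead cores (TGTTTAC, its variant TATTTAC and its variant TGTTTGC). Among the 8 windows there were only these matches, in capitals below: TGATAA, 146 to 141 bases before the AGER start, and TGTTTGC, read on the opposite strand, 235 to 229 bases before the FOXA1 start. Only bases outside annotated exons are printed, 5′ to 3′ on the minus strand on which both genes lie. The FOXA1 stretch lies before the RefSeq start at 37595249 and inside the longer GENCODE span of the gene, which begins further upstream.
AGER, chr6:32184325-32184503: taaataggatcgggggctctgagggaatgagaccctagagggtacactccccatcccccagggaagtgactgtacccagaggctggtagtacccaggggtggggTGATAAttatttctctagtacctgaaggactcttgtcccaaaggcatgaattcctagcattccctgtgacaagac
FOXA1, chr14:37595349-37595499: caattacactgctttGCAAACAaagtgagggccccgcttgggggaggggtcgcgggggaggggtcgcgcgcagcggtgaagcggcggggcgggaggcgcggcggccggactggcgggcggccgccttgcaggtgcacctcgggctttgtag

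A GATA core of the kinds searched occurred in 22.3% and TGATAA alone in 6.66% of 35116 RefSeq windows of this length, and a forkhead core in 8.27%. The AGER window had a GC content of 56.8%, near the median of 58.0% over all windows, and 3 CpG dinucleotides against a median of 11. The windows of CAV2 were richer in GC, at 83.2% and 70.0%, with 35 and 27 CpG. A match to these letters describes the sequence and says nothing of binding.

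CAV1 and CAV2 encode caveolin-1, the main coat protein of caveolae outside muscle, and caveolin-2, which assembles with caveolin-1. The genes are neighbours on chromosome 7 on the plus strand, CAV2 at 116287380 to 116508541 (15 transcripts) and CAV1 at 116524785 to 116561184 (9 transcripts), with 16243 bases between them.

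CAV2 had 519 to 1606 counts per library, the deepest of the 6 genes. It was at 86.5, 131, 163 and 134 CPM in positive 1, 3, 4 and 5 and at 233, 176, 159 and 173 CPM in negative 2, 6, 7 and 8. Positive 4 lay above negative 7, and otherwise the positive libraries were below the negative ones. The means were 129 ± 31.7 and 185 ± 32.7 CPM (SD, n = 4 each), and the log2 fold change was -0.53 ± 0.21 (SE, 95% interval -0.98 to -0.07, edgeR adjusted p 0.319). Positive 1 was the lowest and negative 2 the highest library, and without both the log2 fold change was -0.23 (edgeR unadjusted p 0.133). It was -0.38 without either one of them. Leaving out the ends of the range shrinks the difference by itself, so these fits cannot tell how far it rested on them.

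CAV1 was at 5.16, 4.31, 6.52 and 5.497 CPM in positive 1, 3, 4 and 5 and at 8.28, 3.72, 5.86 and 5.55 CPM in negative 2, 6, 7 and 8. The negative libraries 2 and 6 held both the highest and the lowest value, so that the positive range lay within the negative one. The log2 fold change was -0.13 ± 0.29 (SE, 95% interval -0.75 to 0.50, edgeR adjusted p 0.846), with 22 to 57 counts per library. It turned positive when negative 2 was left out (0.10), when positive 1 was left out as well (0.12) and under scaling to library totals (0.0025).

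The CAV1 and CAV2 levels (log2 CPM) had a Pearson correlation of 0.42 over the 8 libraries (exact permutation p = 0.288, 0.576 adjusted over 4 relations) and a Spearman correlation of 0.40 (exact permutation p = 0.327, 0.654 adjusted). Without negative 2 and negative 6, the libraries farthest from the median of CAV1, Pearson's r was 0.47 (exact permutation p = 0.326). A correlation between these neighbours was thus not detectable with 8 libraries.

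On the same chromosome arm, TES, which encodes a focal adhesion protein and lies 28596 bases before the annotated span of CAV2, was at 20.3, 47.6, 40.4 and 46.2 CPM in the positive and 64.3, 50.7, 63.8 and 55.2 CPM in the negative libraries, in the order given above. The annotated span of CAV2 begins at 116287380, whereas its RefSeq starts lie at 116499738 and 116500046, much farther from TES. The groups did not overlap for TES, as was the case for 9.14% of all rows. The log2 fold change of TES was -0.60 ± 0.24 (SE, edgeR adjusted p 0.320), or -0.39 without positive 1 and -0.32 when negative 2 was dropped too (unadjusted p 0.0608). MET, the receptor of hepatocyte growth factor, lies beyond CAV1 and was at -0.14 ± 0.21. Of the 4 genes in this stretch, TES and CAV2 were at an unadjusted p under 0.05, against 14.4% of all rows, and CAV1 and MET were not. With positive 1 and negative 2 both left out, neither TES nor CAV2 was (edgeR unadjusted p 0.0608 and 0.133). These libraries are the ends of the range for both genes, so leaving them out shrinks both differences by itself.

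Of the 14 other genes listed for caveolae, their cavin coat and their associated proteins, 12 had a row and 11 were tested. The edgeR adjusted threshold was passed by 0 of them. Before adjustment 0 higher and 2 lower estimates had a p under 0.05, or 18.2% against 14.4% of all rows, and the median log2 fold change was -0.05 against -0.02 over all rows. The 2 were PACSIN2, a membrane-curving protein of caveolar necks, at -0.56 ± 0.18 (SE), and ROR1, a receptor tyrosine kinase-like protein that scaffolds caveolae, at -0.43 ± 0.20. Both had groups that did not overlap, as did 9.14% of all rows. PACSIN2 was at 34.7, 37.2, 40.1 and 37.8 CPM in the positive libraries and at 50.7, 43.1, 62.9 and 63.9 CPM in the negative ones. The coat protein gene CAVIN1, listed under its older symbol PTRF, was at -0.05, EHD2, an ATPase at the caveolar neck, at 0.14, PACSIN3 at 0.30 and DNM2, which cuts vesicles from the membrane, at -0.27. Positive 1 carried several of these values: without it CAVIN1 (PTRF) was at -0.60 (unadjusted p 0.00707), EHD2 at -0.15, DNM2 at -0.44, ROR1 at -0.34 (unadjusted p 0.0983) and the median of the list at -0.21. Relative to the median of all rows the list's median was -0.03 under TMM, -0.01 under scaling to library totals and -0.02 by the upper quartile.

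**Figure D2:**
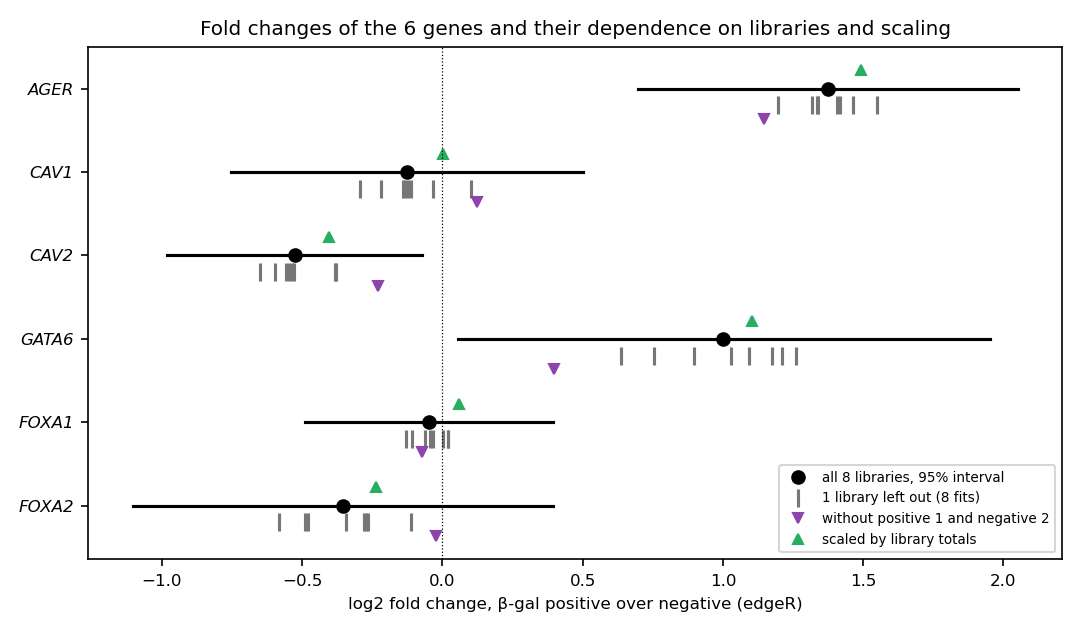
Log2 fold change (horizontal axis, positive over negative cells, edgeR) of the 6 genes: black points with 95% intervals for all 8 libraries, grey bars for the fits with 1 library left out, purple triangles for the fit without positive 1 and negative 2, and green triangles for scaling by library totals. AGER stays between 1.15 and 1.55, GATA6 moves from 1.0 to 0.40 and CAV2 from -0.53 to -0.23 without both libraries, and CAV1 and FOXA1 lie on both sides of 0.

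GATA6, a zinc finger factor needed for the maturation of lung epithelium, lies on chromosome 18 at 22169443 to 22202528 on the plus strand (2 transcripts). Its first 436 annotated bases overlap the antisense gene GATA6-AS1, and since no strand setting of the counting is given in the sources used here, reads of the 2 genes may not be separated there. GATA6 was at 9.50, 3.001, 4.66 and 5.24 CPM in positive 1, 3, 4 and 5 and at 1.16, 4.22, 2.16 and 3.56 CPM in negative 2, 6, 7 and 8. Positive 1 was the highest and negative 2 the lowest library, and positive 3 lay below negative 6 and negative 8. The means were 5.60 ± 2.77 and 2.78 ± 1.38 CPM (SD, n = 4 each), with 8 to 57 counts per library.

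The log2 fold change of GATA6 was 1.0 ± 0.44 (SE, 95% interval 0.05 to 1.95, edgeR adjusted p 0.330), and 0.48 (unadjusted p 0.190) by limma voom with library weights, which count libraries that vary more for less. It was 0.64 without positive 1 (unadjusted p 0.157), 0.75 without negative 2 (0.0815) and 0.40 without both (0.270), all by edgeR. Positive 1 and negative 2 are the ends of the GATA6 range, so leaving them out lowers the difference by itself. The fits without them therefore cannot tell how far the difference rested on these libraries.

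FOXA1 and FOXA2 are forkhead factors that open closed chromatin and share many sites in lung epithelium. FOXA1 lies on chromosome 14 at 37589984 to 37596059 on the minus strand and overlaps TTC6 by 213 bases, and FOXA2 on chromosome 20 at 22581005 to 22585455 on the minus strand.

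FOXA1 was at 14.2, 15.8, 18.4 and 15.4 CPM in positive 1, 3, 4 and 5 and at 13.1, 18.9, 19.0 and 15.1 CPM in negative 2, 6, 7 and 8, so that the ranges nearly coincided. Its log2 fold change was -0.05 ± 0.20 (SE, edgeR adjusted p 0.921), and the 95% interval of -0.49 to 0.39 leaves room for changes of up to 0.71-fold or 1.31-fold. With positive 1 and negative 2 left out it was -0.07. MIPOL1, a gene that lies 37622 bases from FOXA1 on the opposite strand, had a log2 fold change of 0.78 ± 0.31 (SE, edgeR adjusted p 0.319) with overlapping groups. Of 14 genes listed as lying beside the 6, 9 had a row, and of their 12 tested rows 1 was higher (MIPOL1) and 2 were lower (RNF5 and TES) at an unadjusted p under 0.05, or 25% against 14.4% of all rows. AGPAT1 and PBX2 each filled several of the 12 rows, some with identical values, so the share counts these genes more than once. FOXA1 held the narrowest spread of the 6 genes in the positive cells relative to its mean, 15.9 ± 1.76 CPM (SD, n = 4).

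FOXA2 was at 2.33, 7.05, 4.79 and 7.98 CPM in positive 1, 3, 4 and 5 and at 8.13, 5.24, 8.32 and 6.83 CPM in negative 2, 6, 7 and 8. Positive 1 was the lowest library, with 14 counts, and the others overlapped. The log2 fold change was -0.35 ± 0.35 (SE, 95% interval -1.10 to 0.39, edgeR adjusted p 0.622), moving to -0.11 without positive 1 and to -0.02 when negative 2 was left out as well.

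GATA6 and FOXA2 ran opposite to each other over the 8 libraries, with a Pearson correlation of -0.78 (exact permutation p = 0.0260, 0.104 adjusted over 4 relations) and a Spearman correlation of -0.74 (exact permutation p = 0.0458, 0.183 adjusted). As deviations from the group means Pearson's r was -0.73 and Spearman's rho -0.64. Such deviations are tied to each other within each group, so they cannot be freely exchanged and no p-value is given for them. Without positive 1 and negative 2, the libraries farthest from the median of GATA6, Pearson's r was -0.49 over 6 libraries (exact permutation p = 0.317). Leaving out the ends of the GATA6 range narrows it, so this value cannot tell whether the relation rested on them. Under scaling to library totals r was -0.63 (exact permutation p = 0.114) and rho -0.36 (exact permutation p = 0.389) over all 8. FOXA1 and FOXA2 (r = 0.08, rho = 0.12, exact permutation p = 0.869 and 0.793) and GATA6 and FOXA1 (r = 0.10, rho = -0.07, exact permutation p = 0.817 and 0.882) showed no detectable relation, at adjusted p of 0.869 and 0.882 over the 4 relations for each.

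The wider list of lung and foregut transcription factors had 33 genes, of which 23 had a row and 20 were tested. None passed the threshold, 1 was higher and 0 lower at an unadjusted p under 0.05 (5% against 14.4% of all rows), and 10 estimates lay above and 10 below 0, with a median of 0.03. The 1 was HDAC7, a class IIa histone deacetylase that stands in the list but is not itself a transcription factor. HDAC7 was at 120.1, 80.6, 72.8 and 53.1 CPM in the positive and 48.1, 57.5, 55.3 and 61.9 CPM in the negative libraries, with positive 5 inside the negative range. SOX9, a factor of distal lung progenitors, was at a log2 fold change of 0.44 ± 0.22 (SE), TEAD1, the DNA-binding partner of YAP, at 0.83 ± 0.43, and ELF3, an epithelial ETS factor, at 0.68 ± 0.36. All 3 had 95% intervals that spanned 0. Without positive 1 ELF3 was at 0.18 and HDAC7 at 0.31 (unadjusted p 0.122). TEAD1 was at 0.60 without negative 2 and at 1.46 without negative 8, and SOX9 at 0.30 and 0.68. NKX2-1, the defining factor of lung epithelium, and SOX2 were not analysed here. HNF4A, a factor of liver and gut that some lung adenocarcinomas express, was at 13.3 ± 5.88 and 18.4 ± 4.47 CPM (SD, n = 4 each) in positive and negative cells.

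Other markers of alveolar type 1 cells were taken from a list of 22 genes, among them KRT7, an epithelial keratin, at 1320 ± 128 and 1359 ± 118 CPM (SD, n = 4 each) in positive and negative cells. Of these genes, 13 had a row and 9 were tested. HOPX, a homeodomain protein that marks type 1 cells, had 0 to 3 counts per library, and PDPN, AQP5, CLIC5 and RTKN2, further defining markers, were not analysed here. At an unadjusted p under 0.05 there was none of the 9 in either direction, against 14.4% of all rows, 3 estimates lay above and 6 below 0, and the median log2 fold change was -0.04, or -0.02 relative to all rows (-0.03 both under scaling to library totals and by the upper quartile). The nearest to a difference were ANXA3, an annexin, at -0.50 (95% interval -1.16 to 0.17), and AKAP5, an anchoring protein of kinases, at 0.38 (-0.16 to 0.92). AKAP5 was at 7.18 to 12.2 CPM in the positive and 5.95 to 7.12 CPM in the negative libraries, the only one of the 9 without overlap (9.14% of all rows). LMO7, a junction protein, was at 0.26 and EMP2, a tetraspan membrane protein of type 1 cells, at -0.13. Leaving out positive 1 took AKAP5 to 0.19 and LMO7 to -0.10, and leaving out negative 2 took ANXA3 to -0.11.

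Among the defining markers of type 2 cells, the surfactant protein genes SFTPC and SFTPB each had 0 to 3 counts per library and NAPSA, an aspartic protease that processes surfactant proteins, 2 to 9. ABCA3, the lipid transporter of lamellar bodies, had 100 to 249 counts per library, with means of 24.0 ± 7.53 CPM in positive and 22.7 CPM in negative cells. Of 22 type 2 genes 13 had a row and 7 were tested, 0 of them at an unadjusted p under 0.05 (14.4% of all rows), with 5 estimates above and 2 below 0 and a median of 0.22. LPCAT1, which makes surfactant lipid, was at 0.35, LAMP3, a lamellar body protein, at 0.57, LRRK2, a kinase abundant in type 2 cells, at 0.29 and ETV5 at -0.42. Without positive 1 LPCAT1 was at 0.09, and without negative 2 LRRK2 was at 0.14 and the median at -0.05. ETV5 and CEBPA stand both in this list and among the transcription factors.

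RAGE ligands and signalling proteins were described next to AGER. Of 24 genes 20 had a row and 15 were tested. None passed the threshold, and 1 was higher and 3 were lower at an unadjusted p under 0.05 (26.7% against 14.4% of all rows). The estimates were below 0 for 12 of 15, with a median of -0.32 against -0.02 over all rows. The median was -0.19 when libraries were scaled by their totals, which moved the median of all rows to 0.10, and -0.15 with positive 1 and negative 2 both left out.

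Among the lower genes were the small GTPases CDC42 and RAC1, which drive actin remodelling. CDC42 was at 177, 257, 279 and 239 CPM in positive 1, 3, 4 and 5 and at 482, 342, 338 and 388 CPM in negative 2, 6, 7 and 8, without overlap (9.14% of all rows). Its log2 fold change was -0.70 ± 0.19 (SE, edgeR adjusted p 0.309), and that of RAC1 was -0.54 ± 0.20. IRAK4, a kinase of Toll-like receptor signalling, was higher, at 34.2, 17.7, 16.8 and 16.6 CPM in the positive and 7.11, 11.3, 10.3 and 16.9 CPM in the negative libraries, a log2 fold change of 0.89 ± 0.31. Without positive 1 IRAK4 was at 0.57 (unadjusted p 0.0557), and without both positive 1 and negative 2 at 0.42, where CDC42 was at -0.44 (unadjusted p 0.00594) and RAC1 at -0.32 (0.0804). Among ligand genes, the log2 fold changes were 0.00 for S100A4, -0.01 for HMGB1, -0.15 for S100P, -0.26 for S100A11 and -0.36 for S100A6, all with 95% intervals that spanned 0. Without negative 2 S100P was at -0.47 (unadjusted p 0.0377) and HMGB1 at 0.28. S100A8, S100A9 and S100A12 had too few counts to be tested.

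**Figure D3:**
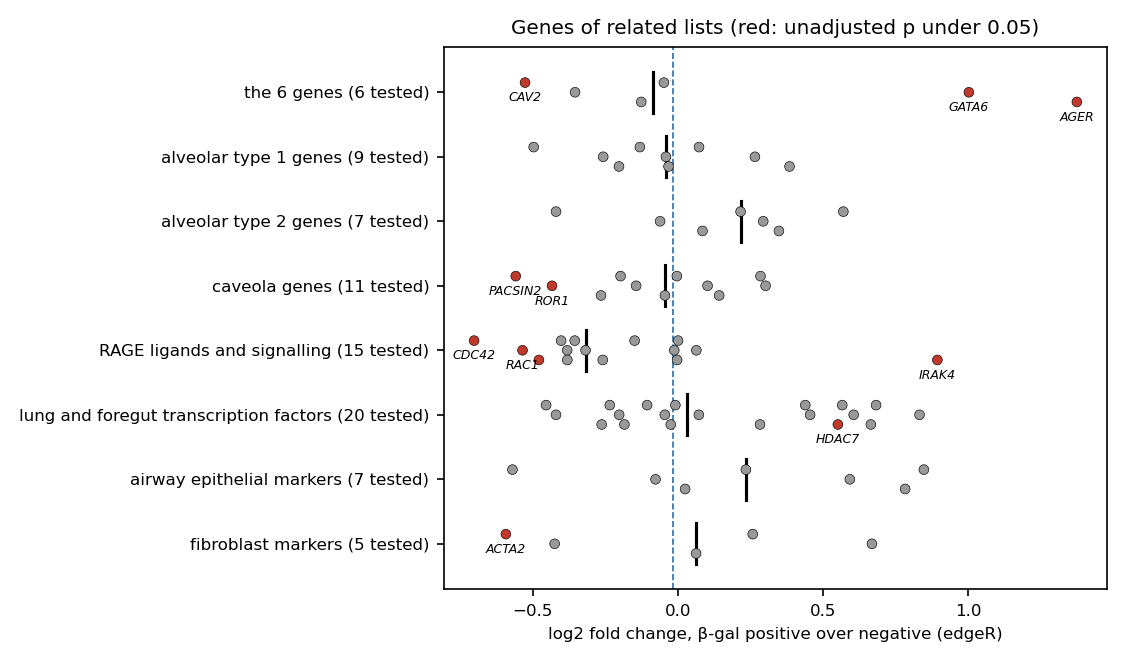
Log2 fold change (horizontal axis, positive over negative cells, edgeR) of each tested gene in the named lists, red where the unadjusted p was under 0.05 (those described in the text labelled), with the median of each list as a black bar and that of all tested rows as a dashed line at -0.02. The medians of the type 1 genes (-0.04), caveola genes (-0.05) and transcription factors (0.03) lie near the dashed line, and that of RAGE signalling lies at -0.32.

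**Figure D4:**
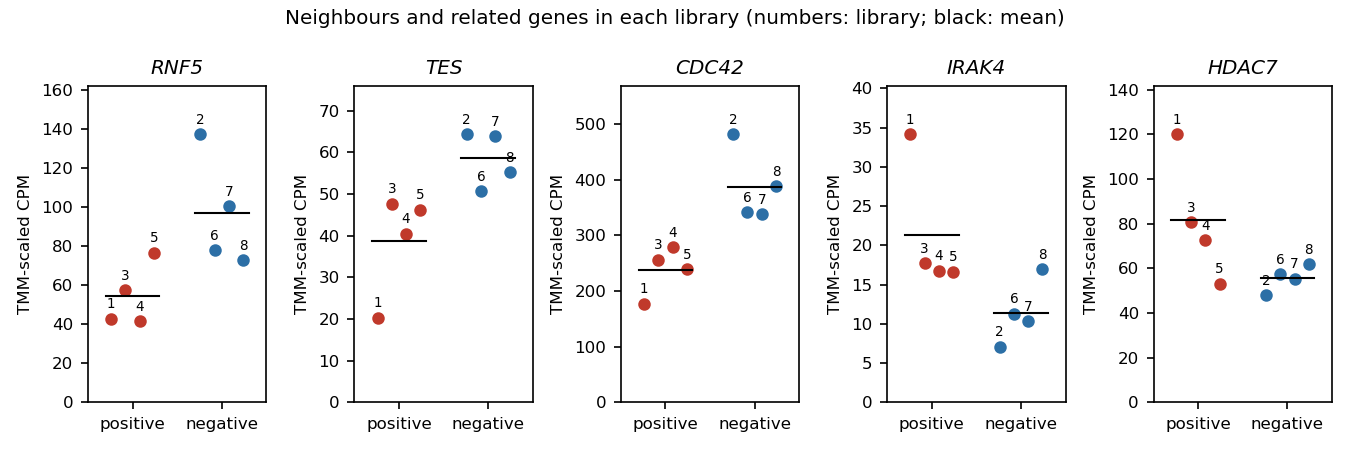
TMM-scaled CPM (vertical axis, from 0, its range differing by panel) of RNF5, TES, CDC42, IRAK4 and HDAC7 in each library, red for positive and blue for negative cells, with library numbers and the group mean as a black bar. TES and CDC42 do not overlap between groups, and positive 1 or negative 2 is at one end of the range in all 5 panels.

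All libraries were labelled as A549 cells. Levels of genes that mark other cell types are given beside these results, and their part in them was not tested. Of 12 fibroblast markers 7 had a row and 5 were tested, summing to 49.98 to 64.5 CPM in the positive and 53.7 to 98.8 CPM in the negative libraries, with DCN at 0 to 5 and COL3A1 at 1 to 8 counts. ACTA2, the smooth muscle actin, was the 1 at an unadjusted p under 0.05, of 5 against 14.4% of all rows (log2 fold change -0.59 ± 0.25, SE), and THY1 was at -0.43, LUM at 0.67 and PDGFRA at 0.26. Of 10 endothelial markers 4 had a row, summing to 39.8 to 68.1 and 38.8 to 47.4 CPM, with CDH5 at 0 to 9 counts and most of the sum in EGFL7 (log2 fold change 0.41), while TIE1 was at 0.37. Of 12 leukocyte markers 3 had a row, CD68, LYZ and ITGAM, summing to 59.1 to 62.8 CPM in the positive and 43.9 to 58.4 CPM in the negative libraries. These sums lay just apart, 59.1 CPM in the lowest positive and 58.4 CPM in the highest negative library. The groups overlapped for each of the 3 genes taken alone, and 9.14% of all single rows did not overlap. Since levels of different genes cannot be set against each other here, the sums serve only as a description. The log2 fold changes were 0.17 for LYZ and 0.14 for CD68. Of 20 airway markers 8 had a row, summing to 149.8 to 289.8 and 70.6 to 235.1 CPM, among them the mucin MUC5B (log2 fold change 0.85, or 0.53 without negative 2), KRT15 (-0.57), CAPS (0.78), BPIFB1 (0.59) and the basal cell factor TP63 (-0.08).

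The genes whose levels ran most like each of the 6 over the 8 libraries were named by Pearson's r of log2 CPM among 7942 or 7941 rows with a mean of at least 10 CPM. For AGER they were PPP1R12C (r = 0.973), a regulator of myosin phosphatase, and ZNF276 (0.972), for GATA6 EFCAB2 (0.982) among them, and for CAV2 TOMM34 (0.985) and GNG12 (0.982). For CAV1 LIN9 (0.960) was among them, for FOXA1 they were DNAL4 (0.974) and TMBIM1 (0.961), and for FOXA2 DNAJC10 (0.983) and ARRDC3 (0.981). These are the highest of many values over 8 points and serve as a description. Positive 1 or negative 2 was at an end of the range for each of the 6 genes. PPP1R12C was at 47.8 ± 12.7 and 25.7 ± 2.79 CPM and ZNF276 at 18.4 ± 4.35 and 8.45 ± 1.11 CPM (SD, n = 4 each) in positive and negative cells. The groups overlapped for neither gene (9.14% of all rows). Choosing genes by likeness to AGER over the same libraries favours this, so it is no separate result.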

How the data were processed

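Per the labels' protocols, targeted amplicon libraries for Ion Torrent sequencing were made from RNA of stretched A549 cells, 4 from β-galactosidase-positive and 4 from negative cells. The submitters' processing notes name fastp 0.20.1, Salmon 1.9 and the build GRCh38. Not given in the sources used here are the annotation, the row filter and the summing of transcripts to genes. Values as deposited were estimated counts for each gene, in whole numbers and not scaled to depth (totals of 5634961 to 7990839). Rows were kept with filterByExpr (minimum count 10, total 15), which left 11351 of 13841, and tested with edgeR 4.0.16 (TMM, robust quasi-likelihood, R 4.3.3), Benjamini-Hochberg adjusted over all rows at 0.05. DESeq2 1.42.0 and limma 3.58.1 voom were run beside it. Rows that share a symbol (58 symbols on 148 rows) were kept apart and carry a row number. Log2 CPM used a prior count of 2. Each library number occurs once, so whether libraries pair is unknown and no block was fitted.

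The genes, lists and tests were chosen with earlier results of these data known. All 6 genes are given in full, with the up to 4 genes of smallest p of each list, genes beside them and the 2 most alike by correlation. A few further list members are named for their role, chosen after their values were seen. A few genes that the rule picks are not reported here. Coordinates are from GENCODE release 29 and promoter sequences from RefSeq.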

Additional observations from a re-analysis of the deposited data

Results flagged for a closer look

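Among the 6 genes themselves, no library stood far from the other 3 of its group. In the related genes, a library stood apart in 10 of 100 groups of 4, members included, where chance flags about 1 in 20, and the groups are not independent of each other. Positive 1 was far above the other positive libraries for IRAK4 (34.2 CPM against 16.6 to 17.7), LMO7 (53.3 against 21.9 to 26.4) and LPCAT1 (134.6 against 72.4 to 83.0). Negative 2 was far below the other negative libraries for LRRK2 (44.7 CPM against 76.5 to 82.0), EGFL7 (34.3 against 41.0 to 41.9) and BPIFB1 (0 against 1.69 to 1.85), and above them for DNM2 (29.9 against 27.7 to 28.1). Negative 7 stood apart for the PBX2 rows, which are copies of the same gene and so no separate flags. It was above the others for PBX2_row1 and PBX2_row2 (20.8 CPM each against 11.96 to 12.9) and at 0 CPM for PBX2_row3 (against 11.96 to 12.9).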

How the results depend on the processing

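No paired analysis was possible because each library number is used once, and the positive and negative libraries share none. DESeq2's Wald test called AGER (log2 fold change 1.38) as the 1 of the 6 genes and 53 rows in all. Without the edgeR filter, an alternative chosen after seeing the data like all DESeq2 fits on fewer libraries, it called AGER (1.37) as the 1 of 6 and 47 rows. Without positive 1 and negative 2 together it called 18 rows and gave AGER no adjusted p (unadjusted p 0.00692). Leaving out 1 library at a time, over edgeR and DESeq2, the 6 genes held 0 to 1 calls and all rows 0 to 142, where edgeR's were TBRG1 (without negative 6) and CBWD5 (without negative 8), and AGER ran from 1.20 to 1.55, CAV1 from -0.29 to 0.10 and FOXA1 from -0.14 to 0.024. CAV1 also changed sign under scaling to library totals (0.0025) and without positive 1 and negative 2 together (0.12 by edgeR, 0.11 by DESeq2), and FOXA1 under scaling to library totals (0.0599), under upper quartile scaling (0.0148) and when at least 50 counts were asked in each library of a group (0.0043), a filter that kept only CAV2 and FOXA1 of the 6. Scaling to library totals moved the median of all rows from -0.02 to 0.096 and upper quartile scaling to 0.048, and relative to that median CAV1 (-0.11 under TMM, -0.09 under totals) and FOXA1 (-0.03 under TMM, -0.04 under totals, -0.03 under the upper quartile) stayed lower. The cause of the other sign changes was not tested. Related genes were refitted without single libraries after seeing the data. The correlation of FOXA1 with FOXA2 turned to -0.025 under scaling to library totals and to -0.0496 without the 2 libraries farthest from the median of FOXA1, and that of GATA6 with FOXA1 to -0.23 without those farthest for GATA6. AGER and GATA6 stayed above and CAV2 and FOXA2 below 0 in every alternative that tested them. The adjusted p of AGER ran from 0.0319 to 0.478 over the edgeR, DESeq2 and limma voom alternatives. AGER was at an unadjusted p under 0.05 in all 26 of its alternatives, CAV2 in 20 of 27 and GATA6 in 15 of 26.

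AGER, CAV1, GATA6 and FOXA2 had between 8 and 61 counts per library, so that differences smaller than their intervals were not detectable at this depth. Over all rows the median half-width of the 95% interval was 0.54 on the log2 scale. The sort was the only contrast, all cells had been stretched, and the labels do not tie libraries to cultures.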
